A study of Danio rerio with 12 samples.

Results

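The zebrafish genes sp7, bglap and spp1 mark the bone-forming cells, the osteoblasts, and are 3 of the 2650 genes that carried a symbol on the array. They were taken by their symbol in the platform annotation, which gave 12 array features (separate oligonucleotide spots) to each gene, 36 of 385000 features in all. Expression was measured in whole larvae of the wild-type AB strain at 72 hours after fertilization (hpf), bathed in the herbicide atrazine at 0.3, 3 or 30 ppb, or at 0 ppb as control, from about 1 hpf onwards. Each dose had 3 pools of 50 animals, and each of the 12 pools was labelled with Cy3 and hybridised to its own single-colour NimbleGen array. No transgene, mutation or cell sort was used. Whether different clutches went into the pools of a dose is not stated, and the p-values below cover the variation among these 12 pools, part of which may be technical.

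The gene sp7 (target NM_212863) encodes osterix, a zinc finger transcription factor that acts downstream of Runx2 and is needed for osteoblasts to mature. Its product stands early in the path, and the other genes encode what mature cells secrete into the matrix. The gene bglap (NM_001083857) encodes osteocalcin, a small calcium-binding protein that is modified in a vitamin K-dependent step, and spp1 (NM_001002308) encodes osteopontin, an acidic phosphoprotein that binds mineral and cell-surface integrins. In zebrafish the first bones of the head and shoulder, such as the opercle and the cleithrum, begin to ossify around hatching, so larvae at this age hold few osteoblasts among many other cells. The arrays used whole-larva RNA, in which fewer osteoblasts and less RNA per osteoblast cannot be told apart.

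None of the 3 genes changed past the threshold at any dose. The value of a gene is the mean log2 intensity of its 12 features, and a difference is given on that log2 scale with its standard error (SE) from a limma fit over all 12 arrays. Calls required a Benjamini-Hochberg adjusted p under 0.05 over all 37144 units of the array (genes with a symbol, and targets without one). For each of 0.3, 3 and 30 ppb against 0 ppb, 0 of the 3 genes and 0% of all units were called. These comparisons share the 3 control pools. At an unadjusted p under 0.05, limma gave 0 of the 3 genes at each dose, and 1.48%, 3.02% and 2.5% of units (551, 1123 and 928) at 0.3, 3 and 30 ppb. The largest difference was in bglap, which averaged 1.27-fold higher at 30 ppb than at 0 ppb with overlapping pools. Differences of sp7 and spp1 from 0 ppb stayed between -0.15 and 0.10 at every dose.

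All 3 genes were dim. Averaged over the 12 arrays, sp7 stood at 6.80, brighter than 20.4% of all units, bglap at 6.43, brighter than 15.3%, and spp1 at 7.44, brighter than 28.3%. Feature brightness depends on the oligonucleotide as well as on the transcript, so these ranks do not order the genes by expression. Background values of the scanner were not used here, so it was not tested which features stood above background. Markers of other larval tissues covered a wide range, from the muscle genes acta1b and mylpfb above 99.8% of units to the red blood cell gene ba1l above 16.2%. Of the 10 osteoblast markers, 4 were measured under a symbol, namely the 3 genes and runx2b. None of the 5 cartilage markers, the 11 liver markers or the 11 epidermis markers was measured under a symbol. The summed intensity of the 4 osteoblast markers ranged over 460 to 595 at 0 ppb, 470 to 616 at 0.3 ppb, 461 to 582 at 3 ppb and 419 to 559 at 30 ppb. The neutrophil and macrophage list had 1 of 10 markers measured, il1b, whose intensity ranged over 95.8 to 162 at 0 ppb, 94.8 to 119 at 0.3 ppb, 105 to 115 at 3 ppb and 87.9 to 752 at 30 ppb. The 2 of 14 pancreas markers measured had summed intensities of 1460 to 3130 at 0 ppb, 809 to 2206 at 0.3 ppb, 2463 to 2944 at 3 ppb and 1116 to 5918 at 30 ppb. In a principal component analysis of all units, the first component held 41.4% of the variance between the arrays.

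The transcription factor gene sp7 had dose means that spanned no more than the standard deviation of single pools within a dose. Its log2 intensities were 6.67, 6.68 and 7.06 at 0 ppb, 6.73, 6.81 and 7.17 at 0.3 ppb, 7.23, 6.62 and 6.64 at 3 ppb, and 6.57, 6.87 and 6.53 at 30 ppb, in the order of replicates 1 to 3. One pool at each of 0, 0.3 and 3 ppb stood at 7.06 or above, and 2 of 3 pools at 30 ppb lay just below every other pool. The ranges of all doses overlapped. Dose means spanned 0.25, against a pooled standard deviation (SD) within doses of 0.25.

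At 0.3 ppb sp7 averaged 6.91 ± 0.24, against 6.81 ± 0.22 at 0 ppb (SD, n = 3 each). The difference was 0.10 (SE 0.20, 95% interval -0.32 to 0.53, adjusted p = 1). At 3 ppb the mean was 6.83 ± 0.35, a difference from 0 ppb of 0.02 (SE 0.20, 95% interval -0.40 to 0.45, adjusted p = 1). The mean of 6.66 ± 0.19 at 30 ppb was 0.902-fold that at 0 ppb, a difference of -0.15 (SE 0.20, 95% interval -0.57 to 0.28, adjusted p = 1). In fold terms this interval ran from 0.672 to 1.21, so a decrease to 0.672-fold or an increase to 1.21-fold lies within it. Between exposed doses, the difference was -0.08 for 3 ppb against 0.3 ppb (SE 0.20) and -0.17 for 30 ppb against 3 ppb (SE 0.20).

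The features of sp7 were split in sign at each dose. At 30 ppb 4 were higher and 8 lower than at 0 ppb, and at 0.3 and 3 ppb 6 were higher and 6 lower. Over all features of the array 51.3%, 48.3% and 46.2% were higher at 0.3, 3 and 30 ppb. A single feature, whose ID ends in 733 and which was picked out after its values were seen, had a mean of 5.79 at 30 ppb against 7.15 at 0 ppb (difference -1.36, SE 0.36, adjusted p = 0.831 over all features). The other 11 features differed by amounts between -0.44 and 0.29 there.

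Osteocalcin had higher means at 3 and 30 ppb, with no call. At 0 ppb the bglap values were 6.42, 6.06 and 6.36, and at 0.3 ppb they were 6.25, 6.19 and 6.38. At 3 ppb they were 6.63, 6.37 and 6.56, and at 30 ppb 6.89, 6.79 and 6.20. At 3 ppb, 2 of 3 pools lay above every pool at 0 ppb, and so did 2 of 3 pools at 30 ppb. Replicate 3 at 30 ppb was the exception, at 6.20 below 2 of the 3 control pools. Some markers of other tissues were higher at the same doses and others lower, again with no call. At 3 and 30 ppb ba1l had the smallest limma p of the 3 measured red blood cell markers. This gene averaged 6.10 at 0 ppb, 6.37 at 0.3 ppb, 6.79 at 3 ppb and 6.70 at 30 ppb. It differed from 0 ppb by 0.69 at 3 ppb (limma, unadjusted p = 0.00166, adjusted p = 0.732) and by 0.59 at 30 ppb (limma, unadjusted p = 0.00473, adjusted p = 0.981). With array quality weights both differences of ba1l were called (limma, adjusted p = 0.00846 and 0.00834). Estimation of these weights did not converge, and with them 1193 and 354 of 37144 units were called at 3 and 30 ppb. Over the alternatives other than leaving out 1 pool, its difference at 30 ppb ran from 0.27 to 0.98, with unadjusted p (limma) up to 0.234. Of the 3 measured red blood cell markers, 3 were higher at 3 ppb and 2 at 30 ppb, and both pancreas markers were higher at each of these doses (medians 0.35 and 0.36). Both measured muscle markers and the intestine marker cdx1b were lower at each of them. Of 6 lens markers 4 were higher at 3 ppb and 3 at 30 ppb, and the mean of il1b was lower at 3 ppb and higher at 30 ppb. Pools at 30 ppb spread widely for il1b (6.46 to 9.56, against 6.58 to 7.34 at 0 ppb). So did those of the pancreas markers prss59.1 (9.96 to 12.36, against 10.37 to 11.50) and ctrb.3 (6.93 to 9.38, against 7.10 to 7.85). Each of these ranges at 30 ppb held the whole range at 0 ppb. The part of these tissues and of il1b in the values of bglap was not tested.

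Mean bglap levels were 6.52 ± 0.13 at 3 ppb and 6.63 ± 0.38 at 30 ppb, against 6.28 ± 0.19 at 0 ppb (SD, n = 3 each). The difference from 0 ppb was 0.24 at 3 ppb (SE 0.18, 95% interval -0.15 to 0.63, unadjusted p = 0.203, adjusted p = 1), and without replicate 2 at 0 ppb it was 0.13. At 30 ppb it was 0.35 (SE 0.18, 95% interval -0.05 to 0.74, unadjusted p = 0.0783, adjusted p = 1), or 1.27-fold with an interval of 0.969 to 1.67. Without replicate 3 at 30 ppb this difference was 0.56 (adjusted p = 0.921), and over all fits that left out 1 pool it lay between 0.21 and 0.56. At 0.3 ppb, with a mean of 6.27 ± 0.10, the difference was -0.01 (SE 0.18). The difference was 0.25 for 3 ppb against 0.3 ppb (SE 0.18) and 0.10 for 30 ppb against 3 ppb (SE 0.18), each with an adjusted p of 1.

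**Figure D1:**
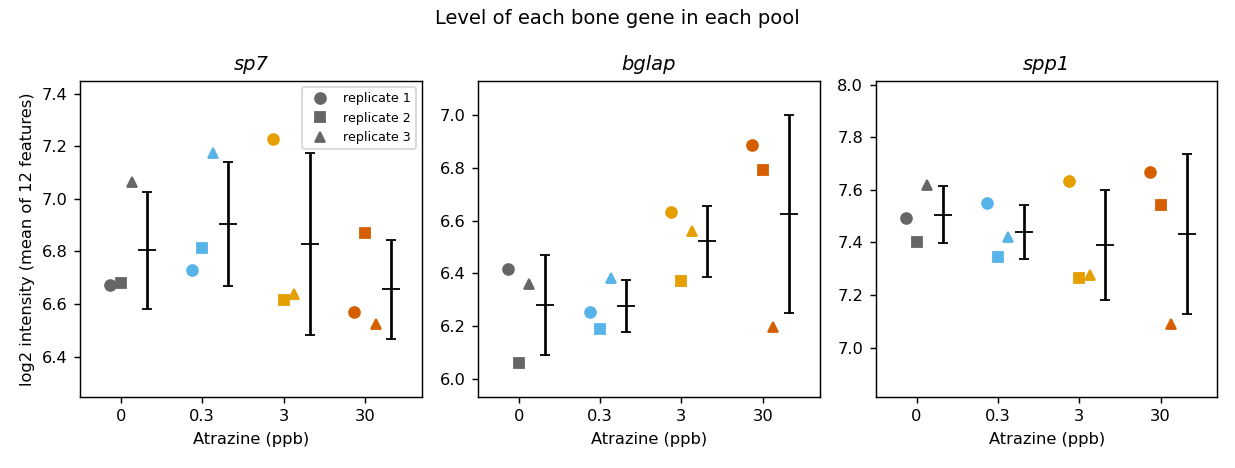
Level of sp7, bglap and spp1 in each pool, as log2 intensity averaged over 12 features (vertical axes, each 1.2 units tall), by atrazine dose in ppb. Symbols are the 3 replicates of a dose, and bars are mean ± SD; for bglap 2 of 3 pools at 3 ppb and at 30 ppb lie above all control pools, and replicate 3 at 30 ppb lies at 6.20.

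Over the ordered doses, bglap had a slope of 0.13 per dose step (SE 0.05, 95% interval 0.01 to 0.24). Its unadjusted p was 0.0308 and its adjusted p 1. An unadjusted p under 0.05 for a slope was found in 4.3% of all units. The slopes of sp7 and spp1 were -0.05 (SE 0.06) and -0.03 (SE 0.05), with unadjusted p of 0.39 and 0.596. By the adjusted p, 0 of the 3 genes and 0.0969% of all units, 36 in number, were called for a slope. Without replicate 3 at 30 ppb the slope of bglap was 0.18 (unadjusted p = 0.00195, adjusted p = 0.379), and without replicate 1 at 30 ppb it was 0.09 (unadjusted p = 0.116).

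Most features of bglap leaned the same way at 30 ppb. Of its 12 features, 9 were higher and 3 lower than at 0 ppb, with a median difference of 0.36, while at 3 ppb 7 were higher and 5 lower. Over all features of the array 46.2% were higher at 30 ppb and 48.3% at 3 ppb. The gene's value is the mean of these same 12 features, so the counts are no separate support for its difference. The feature ending in 39, picked out after its values were seen, differed most, with means of 7.10 at 30 ppb and 5.83 at 0 ppb (difference 1.27, SE 0.33, adjusted p = 0.842). In the brighter 6 of the features the gene's difference at 30 ppb was smaller, at 0.15 (unadjusted p = 0.518).

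Of the 3 genes, osteopontin had the smallest range of dose means. The spp1 values were 7.49, 7.40 and 7.62 at 0 ppb, 7.55, 7.35 and 7.42 at 0.3 ppb, 7.63, 7.27 and 7.28 at 3 ppb, and 7.67, 7.54 and 7.09 at 30 ppb. The highest and the lowest of the 12 values were both at 30 ppb, in replicates 1 and 3, and the ranges of all doses overlapped. Dose means spanned 0.11, against a pooled within-dose SD of 0.20. From 0 to 30 ppb the SD within a dose was 0.11, 0.10, 0.21 and 0.30, a spread that was not tested for a difference between doses.

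Set against 0 ppb, spp1 differed by -0.07 at 0.3 ppb (SE 0.17, 95% interval -0.43 to 0.29), by -0.11 at 3 ppb (SE 0.17, 95% interval -0.47 to 0.25) and by -0.07 at 30 ppb (SE 0.17, 95% interval -0.43 to 0.29). Each adjusted p was 1. At 30 ppb the fold was 0.951, with an interval of 0.741 to 1.22. The numbers of features higher and lower were 5 and 7 at 0.3 ppb, 6 and 6 at 3 ppb, and 6 and 6 at 30 ppb. It differed by -0.05 for 3 ppb against 0.3 ppb and by 0.04 for 30 ppb against 3 ppb (SE 0.17 for both).

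**Figure D2:**
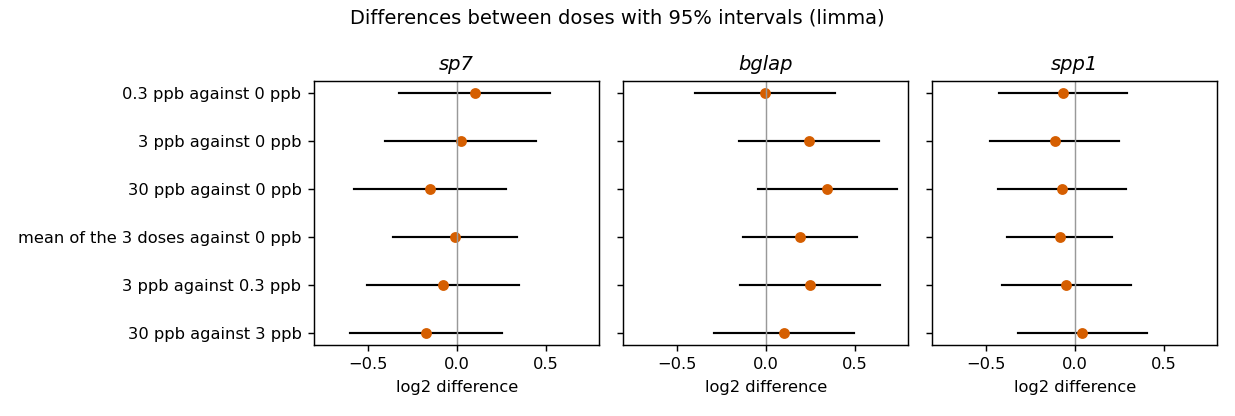
Fitted log2 differences of sp7, bglap and spp1 (points) with 95% intervals (lines) for 6 comparisons of doses, from limma over all 12 arrays. Every interval includes 0; the point farthest from 0 is that of bglap at 30 ppb against 0 ppb, at 0.35.

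The mean of the 3 doses also differed from 0 ppb by an amount whose 95% interval included 0 for each gene. It differed by -0.01 for sp7 (SE 0.16), by 0.19 for bglap (SE 0.15) and by -0.08 for spp1 (SE 0.14), each with an adjusted p of 1, and 0 of the 3 genes and 0% of units were called. Between neighbouring exposed doses 0 of the 3 genes and 0% of units were called as well. At an unadjusted p under 0.05 limma gave 0 of the 3 genes in these 3 comparisons, and 2.16% of units for the mean of doses, 4.16% for 3 against 0.3 ppb and 0.762% for 30 against 3 ppb. By the criterion that the pools of both doses do not overlap, 0 of the 3 genes stood apart at 0.3, 3 or 30 ppb against 0 ppb, where 5.08%, 7.4% and 6.53% of all units did. Nor did any of them at 3 against 0.3 ppb (7.45% of units) or at 30 against 3 ppb (3.6% of units).

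Within a gene, the mean brightness of features differed far more than the dose means of the gene did. The mean level of single features spanned 25.5-fold in spp1 (from 5.25 to 9.92), 9.49-fold in sp7 (from 5.15 to 8.39) and 3.42-fold in bglap (from 5.54 to 7.32). Only 1 of the 36 features, the spp1 feature ending in 851, was brighter than the median feature of the array. The 2 spp1 features with the highest numbers in their IDs, 1315 and 1409, were dimmer than 90% of all features. What the numbers in feature IDs count is not given in the sources used here.

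**Figure D3:**
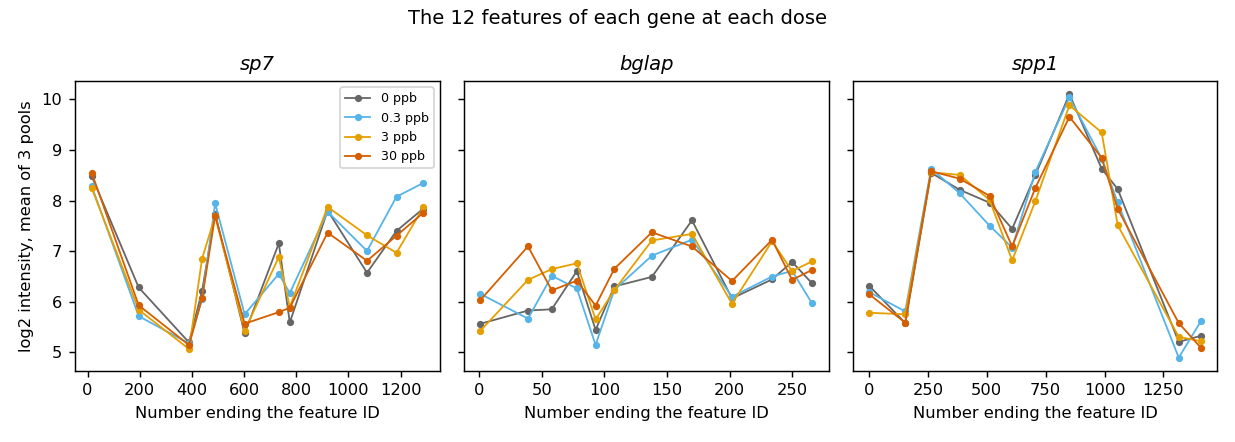
Mean log2 intensity over 3 pools (vertical axis) of the 12 features of each gene, ordered by the number that ends the feature ID, with a line for each dose in ppb. Features of spp1 span from 5.25 to 9.92. Doses differ at single features, such as the sp7 feature ending in 733 (7.15 at 0 ppb, 5.79 at 30 ppb) and the bglap feature ending in 39 (5.83 and 7.10).

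Features of 1 gene also followed each other weakly across the arrays. The median Pearson r between pairs of features (66 pairs a gene, over 12 arrays) was 0.14 for sp7, 0.10 for bglap and 0.07 for spp1. Over the 2253 named genes with 12 features the median of this value was 0.11, with quartiles of 0.03 and 0.22. All features of a gene share the same 12 RNA samples.

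The levels of the bone genes did not track each other strongly over the 12 pools, though r was higher for each pair with dose means removed. Between bglap and spp1 Pearson's r was 0.53 (permutation p = 0.0763) and Spearman's rho 0.52 (permutation p = 0.0898). Between sp7 and spp1 r was 0.48 (permutation p = 0.112) and rho 0.46 (permutation p = 0.134), and between sp7 and bglap r was 0.12 (permutation p = 0.702) and rho 0.07 (permutation p = 0.836). All permutation tests were two-sided with 100000 resamples, in a family of 6 relations. After Benjamini-Hochberg adjustment these r had p of 0.153, 0.168 and 0.702, and these rho 0.161, 0.161 and 0.836, in the order given. With dose means removed, r was 0.84 for bglap and spp1, 0.54 for sp7 and spp1, and 0.45 for sp7 and bglap. These r rest on fewer degrees of freedom than those over levels, and the differences between them were not tested. Without the 2 pools farthest from the median of the first gene of each pair, r was 0.33 for bglap and spp1, 0.51 for sp7 and spp1, and -0.01 for sp7 and bglap.

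Of the bone genes, osteopontin had the highest correlation with the first principal component of the arrays. Its level had r = 0.80 (permutation p = 0.00179, adjusted p = 0.0107) and rho = 0.90 (permutation p = 0.00023, adjusted p = 0.00138) with the component's score, 0.87 with dose means removed, and 0.79 without the 2 pools farthest from the median score. For sp7 r was 0.64 (permutation p = 0.0265, adjusted p = 0.0795) and rho 0.63 (permutation p = 0.0324, adjusted p = 0.0971), with 0.63 within doses and 0.59 without those pools. For bglap r was 0.44 (permutation p = 0.148, adjusted p = 0.178) and rho 0.47 (permutation p = 0.126, adjusted p = 0.161), with 0.68 within doses and 0.56 without those pools. Each dose spread along this component. The score also ran with another measure of each array, the gradient of signal along the number that ends the feature ID. Whether this gradient is technical was not tested. Arrays with a negative gradient scored 0.20 to 0.51. Those with a positive gradient had negative scores, except replicate 1 at 30 ppb (0.22). The part of this gradient in the correlations was not tested. The component was computed from all units, sp7, bglap and spp1 included. The share of units that followed it as closely as spp1 was not tested. The permutation p therefore does not set spp1 apart from other units. What the component stands for was not tested.

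**Figure D4:**
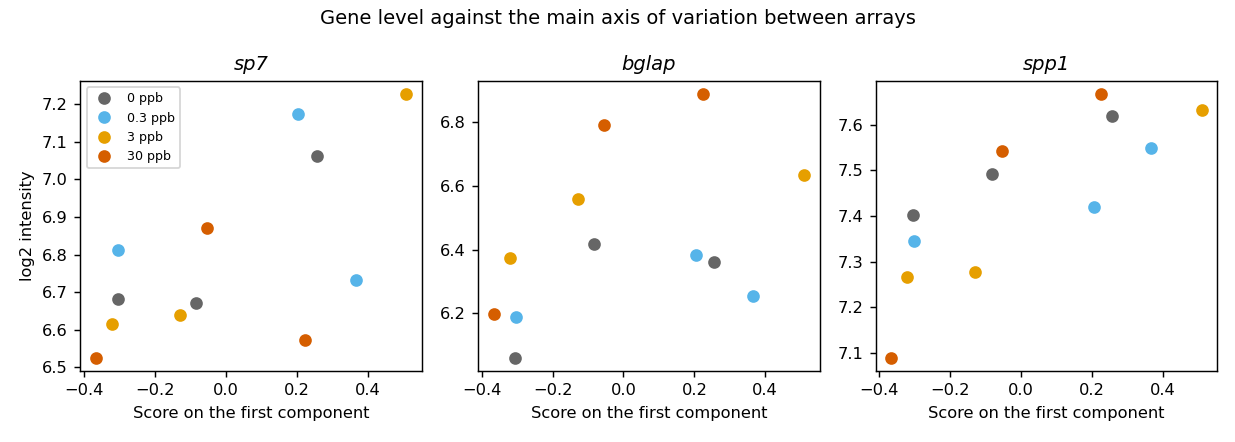
Log2 intensity of sp7, bglap and spp1 (vertical axes) against the score of each array on the first principal component of all units, which held 41.4% of the variance. Each point is a pool, coloured by dose; the points of spp1 follow the score with r = 0.80, those of bglap with r = 0.44.

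The genes most like each member by Pearson r over the 12 arrays were sought among 2457 genes with a symbol that is no clone or locus ID. For sp7 these were tsnax (0.93), mbd2 (0.92) and cpne5b (0.92). For bglap they were thnsl2 (0.89), srd5a2b (0.85) and mov10l1 (0.84), and for spp1 bambib (0.90), pip5k1aa (0.89) and defbl3 (0.89). Highest with dose means removed were irf10, tsnax and lrr1 for sp7 (0.96, 0.94 and 0.93), stard10, tmem88a and tamalin for bglap (0.97, 0.97 and 0.93), and uqcc1, tnni4a and chchd6b for spp1 (0.96, 0.96 and 0.95). An r above 0.8 over the 12 levels was reached by 43 genes for sp7, 8 for bglap and 50 for spp1, so the leading genes stand close to others. With dose means removed it was reached by 86 genes for sp7, 84 for bglap and 177 for spp1. Removal of dose means leaves fewer degrees of freedom, so a high r is reached more readily and these counts are not comparable with those over levels.

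Around these genes, 11 lists of skeletal biology held 287 genes. The array carried 53 of them by symbol, sp7, bglap and spp1 included. None was called at any dose, where 0% of units were. At an unadjusted p under 0.05 there was 1 of the 53 genes (1.89%) at each dose, against 1.48%, 3.02% and 2.5% of all units at 0.3, 3 and 30 ppb. These were the integrin gene itgb3a at 0.3 ppb, with a difference of -0.50 (limma, unadjusted p = 0.0434), and mgp at 3 and 30 ppb. At 30 ppb 10 were higher and 43 lower than at 0 ppb, with a median difference of -0.08, while over all units 44.7% were higher and the median was -0.02. Without sp7, bglap and spp1, 9 of 50 genes were higher and 41 lower there, with a median of -0.08. Most of the 53 genes were not dim. Among units above the 25th percentile of brightness, 38 of 44 skeletal genes were lower with a median of -0.08, while 39.0% of those units were higher and their median was -0.03. The number lower lay between 30 and 43 under the alternatives that measured all 53 genes. It was 38 with arrays centred on their median, 39 with cyclic loess, 32 without replicate 1 at 30 ppb (median -0.04) and 30 with array quality weights (median -0.03). In these fits 53.4%, 49.6%, 44.3% and 45.8% of all units were higher, in that order. At 3 ppb 22 were higher and 31 lower (median -0.07, against -0.01 over all units), and at 0.3 ppb 27 were higher and 26 lower (median 0.01, against 0.00).

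At 30 ppb 44.7% of all units were higher than at 0 ppb. Among regulators of osteoblast transcription, sp7 included, 1 of 6 measured genes was higher. With arrays centred or with cyclic loess, 2 were. The gene runx2b encodes a Runx2 factor, which stands upstream of Sp7. Its levels were 6.64, 6.93 and 7.52 at 0 ppb, 6.64, 6.96 and 7.76 at 0.3 ppb, 7.07, 6.98 and 7.27 at 3 ppb, and 6.62, 7.17 and 6.87 at 30 ppb, with overlap of all doses. At 30 ppb it differed from 0 ppb by -0.14 (SE 0.28). The differences of twist2, which encodes a factor that restrains Runx2 in mammals, and of cbfb, which encodes the partner subunit of Runx factors, were -0.21 (SE 0.17) and 0.04 (SE 0.14). In the Sp family, whose members share their zinc fingers with Sp7, 4 of 4 measured genes, sp7 included, were lower (3 with arrays centred, 2 with cyclic loess), by -0.15 to -0.01, such as sp3a at -0.14 (SE 0.16) and sp9 at -0.05 (SE 0.20). No list was tested as a whole.

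In the list on bone matrix and mineralization, which holds bglap and spp1, 4 of 6 measured genes were higher at 30 ppb and 2 lower. The median was 0.21, with the same split under each scaling. Among these 6, bglap (0.35) counts as higher and spp1 (-0.07) as lower, so the median rests in part on bglap itself. Without replicate 2 at 0 ppb the split was 3 and 3 and the median 0.10. With only features at or above the median brightness of their gene, the split was 3 and 3 and the median 0.06. The gene bmp1a, which encodes a procollagen-processing protease, differed by 0.35 (SE 0.24), and plod2, for a collagen lysyl hydroxylase, by -0.08 (SE 0.18). The gene mgp was picked out after its values were seen. It encodes matrix Gla protein, which carries the same vitamin K-dependent modification as osteocalcin and inhibits mineralization of soft tissue in mammals. Its levels were 7.22, 6.90 and 7.02 at 0 ppb, 6.90, 7.11 and 6.95 at 0.3 ppb, 7.50, 7.32 and 7.47 at 3 ppb, and 7.30, 7.67 and 7.34 at 30 ppb.

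All pools of mgp at 3 and at 30 ppb thus lay above all pools at 0 ppb, as 3.52% and 3.4% of units did at these doses. Its difference from 0 ppb was 0.39 at 3 ppb (SE 0.14, unadjusted p = 0.0178) and 0.39 at 30 ppb (SE 0.14, unadjusted p = 0.0172), each with an adjusted p of 1, and 9 of 12 features were higher at each dose. The value of mgp is the mean of these same features, so their count is no separate support. The slope of mgp was 0.16 per dose step (SE 0.05, unadjusted p = 0.00441, adjusted p = 0.532). None of these passed.

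The cartilage genes matn3a, ucmaa and ucmab, which encode a matrilin and the unique cartilage matrix proteins, differed at 30 ppb by -0.10 (SE 0.26), -0.08 (SE 0.30) and -0.07 (SE 0.21). In the list on osteoclasts and bone resorption, csf1ra and spi1b were measured. Which cells of the whole larva gave their signal was not tested. The gene csf1ra, for the receptor of a macrophage growth factor that osteoclast precursors need, differed by -0.48 at 30 ppb (SE 0.29, limma, unadjusted p = 0.126). It differed by -0.15 without replicate 1 at 0 ppb and by -0.77 without replicate 2 at 30 ppb. The myeloid factor gene spi1b differed by -0.02 (SE 0.16, with the sign turned where arrays were centred). Osteopontin binds integrins, and all 5 measured genes for such receptors were lower (4 with arrays centred), where 44.7% of all units were higher. They differed by -0.22 to -0.01, with itgav at -0.12 (SE 0.26) and itgb1b at -0.06 (SE 0.13). Every one of these had an adjusted p of 1.

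Signalling genes that act on osteoblasts were mostly a little lower at 30 ppb, with no call, where 44.7% of all units were higher. The counts below are small, and no list was tested against that share. All 4 measured BMP pathway genes were lower under each scaling (-0.23 to -0.08, median -0.15), such as the receptor gene bmpr2b at -0.18 (SE 0.23) and the gene for the decoy receptor bambib at -0.08 (SE 0.17). So were all 4 hedgehog pathway genes under each scaling (-0.11 to -0.08, median -0.09), with the ligand gene ihha at -0.11 (SE 0.13) and the transcription factor genes gli3 and gli2b at -0.09 (SE 0.12) and -0.08 (SE 0.13). Of 7 Wnt genes 6 were lower (5 with arrays centred or with cyclic loess), over a range of -0.19 to 0.07, among them sfrp2 and sfrp1b, for secreted Wnt-binding proteins, at -0.13 (SE 0.14) and -0.19 (SE 0.13). All 5 retinoic acid genes were lower (4 with cyclic loess), by -0.31 to -0.05 (median -0.08), with the degrading enzyme gene cyp26b1 at -0.06 (SE 0.17) and the synthesizing enzyme gene aldh1a3 at -0.08 (SE 0.14). The 8 genes for calcium and phosphate hormones and their targets were split, with 4 higher and 4 lower (3 and 5 with cyclic loess), over a range of -0.36 to 0.25. The calcium channel gene trpv6 was at -0.11 (SE 0.17) and the vitamin D receptor gene vdra at -0.17 (SE 0.19).

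**Figure D5:**
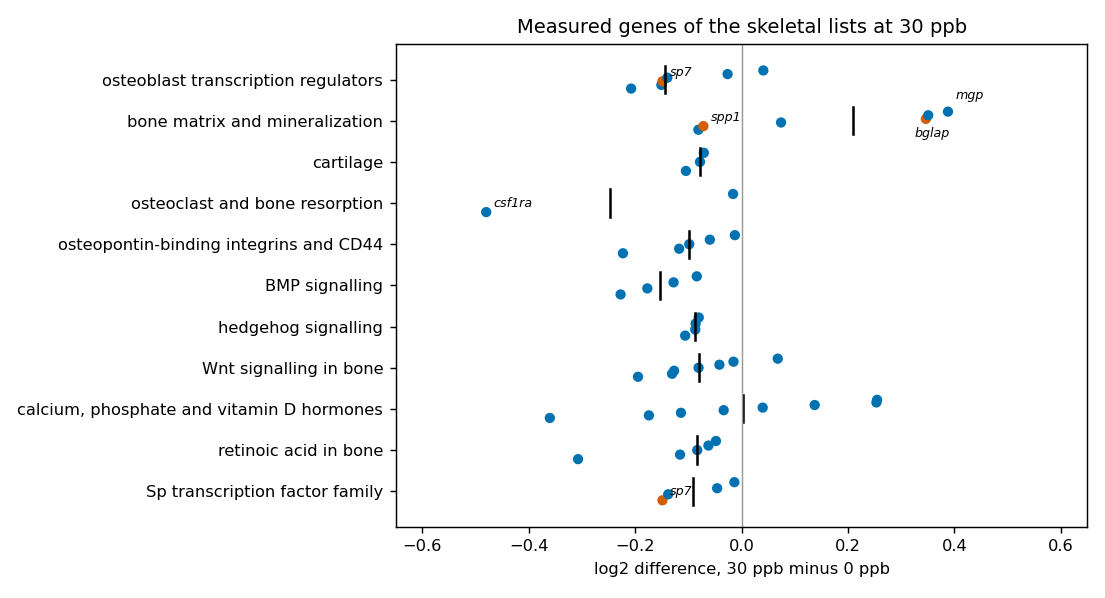
Log2 difference at 30 ppb minus 0 ppb (horizontal axis) of each measured gene of the 11 skeletal lists, a row for each list, with sp7, bglap and spp1 in orange and other genes in blue; vertical strokes are list medians and sp7 stands in 2 lists. Of the 53 genes 43 lie below 0 and none passed the test, while 44.7% of all units were higher. The bone matrix list, which holds bglap and spp1, has the highest median, at 0.21.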

How the data were processed

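The authors deposited a matrix of linear fluorescence intensities, 385000 features by 12 arrays, with nearly the same quantiles on each array. RMA is named in the submitters' processing notes, with its version, background correction and slides not given in the sources used here. Intensities were transformed to log2 and averaged per gene (features without a symbol per target ID), giving 37144 units, and no unit was left out. The platform annotation named 30326 features and RefSeq accessions (GRCz12tu gene table, used for names only) a further 399. No coordinates or sequences are given.

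Group means and a slope over dose rank were fitted with limma 3.58.1 (lmFit, contrasts.fit, eBayes) in R 4.3.3. Benjamini-Hochberg adjustment ran over all 37144 units. Python 3.11.15, numpy 2.4.6, pandas 2.3.3 and scipy 1.17.1 were used for tables and permutations, and the fits were tested on simulated data. Precision is limited by having 3 arrays a dose.

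The 3 genes, the lists and the tests were chosen with earlier results of these data known. Named are, beside the 3 genes, up to 3 of the brightest measured genes of each list (any where 5 or fewer were measured, with the range over the list), markers of lists with 5 or fewer measured, and the 3 genes most like each member; exceptions are stated. The alternatives were other summaries and normalizations, filters, weights, covariates, a block for the replicate number, and fits without 1 pool. Same-numbered pools were not taken as pairs, since the labels name no shared clutch or day. Between their deviations from dose means r ran from -0.37 to 0.68 (mean 0.19), so these r are no reason to treat the pools as unrelated. Whether pools of the same number share a source was not tested.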

Additional observations from a re-analysis of the deposited data

How the results depend on the processing

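Over the 21 results of sp7, bglap and spp1, 511 alternatives gave 0 calls, with a lowest adjusted p of 0.119 (array quality weights). The sign was kept in 457 and turned in 54, and the cause of the turns was not tested. Not all of the 457 could have turned. For a difference between doses, leaving out a pool of a dose not compared returns the same value. So do the replicate block, the main axis of variation as a covariate, and fits that change only the variance estimate. How many of the 457 are of this kind was not counted, so 457 does not measure stability. For sp7, 0.3 against 0 ppb gave -0.29 with the median of features and -0.035 with the gradient along feature ID numbers as a covariate. For 3 against 0.3 ppb sp7 gave 0.30 and 0.079. For 3 against 0 ppb sp7 gave -0.018 with cyclic loess, -0.086 with weights and -0.013 as the median of single features. Weights gave 0.079 for sp7 at 30 against 0 ppb and 0.16 at 30 against 3 ppb. The mean of doses gave 0.027 with arrays centred, 0.068 with weights, 0.043 as the median of single features, and 0.075 with only the brighter features, those at or above their gene's median, an alternative chosen after seeing the data. For bglap, 0.3 against 0 ppb gave 0.065 with the median of features, 0.00093 with quantile normalization and 0.031 with arrays centred, and 30 against 3 ppb gave -0.12 with the brighter features. For spp1, 30 against 0 ppb gave 0.014 with the median of features and 0.019 with weights, and 3 against 0.3 ppb 0.040 with the gradient. With the brighter features spp1 gave 0.057 for 3 against 0 ppb, 0.00018 for the mean of doses, 0.097 for 3 against 0.3 ppb, -0.074 for 30 against 3 ppb and 0.0048 for the slope.

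Leaving out 1 pool at a time, sp7 ran from -0.033 to 0.23 at 0.3 ppb, -0.18 to 0.15 at 3 ppb and -0.26 to -0.020 at 30 ppb against 0 ppb. It ran from -0.075 to 0.12 for the mean of doses, -0.28 to 0.055 for 3 against 0.3 ppb and -0.28 to 0.028 for 30 against 3 ppb. For bglap the ranges were -0.11 to 0.064 at 0.3 ppb, 0.13 to 0.32 at 3 ppb, 0.085 to 0.27 for the mean of doses and -0.028 to 0.32 for 30 against 3 ppb. For spp1 they were -0.12 to -0.0091 at 0.3 ppb, -0.23 to -0.051 at 3 ppb, -0.19 to 0.10 at 30 ppb, -0.14 to -0.027 for the mean of doses, -0.17 to 0.016 for 3 against 0.3 ppb, -0.075 to 0.21 for 30 against 3 ppb and -0.061 to 0.014 for the slope. Ranges that crossed 0 at 30 ppb were matn3a -0.22 to 0.0053, itgav -0.37 to 0.24, itgb1b -0.13 to 0.044, cyp26b1 -0.14 to 0.057, ucmab -0.16 to 0.018, cbfb -0.024 to 0.14 and bambib -0.23 to 0.043. So were trpv6 -0.21 to 0.028, aldh1a3 -0.18 to 0.036, sp9 -0.18 to 0.031, plod2 -0.27 to 0.090, spi1b -0.20 to 0.083, ucmaa -0.48 to 0.26 and runx2b -0.33 to 0.10. At 30 ppb csf1ra ran from -0.77 to -0.15, and at 0.3 ppb mgp from -0.13 to 0.026. Weights gave ba1l 0.82 at 3 ppb (adjusted p = 0.00846), 0.89 at 30 ppb (adjusted p = 0.00834) and 0.27 for the slope (adjusted p = 0.0185). At 30 ppb weights turned itgav to 0.099, sfrp2 to 0.0052, itgb1b to 0.069, sp3a to 0.061, spi1b to 0.32 and runx2b to 0.24. The median of features turned gli2b to 0.024, sp9 to 0.073, sfrp1b to 0.0073 and runx2b to 0.027. Centring turned spi1b to 0.014, cyclic loess turned sp9 to 0.0018 and the gradient turned sp9 to 0.024. The brighter features turned cyp26b1 to 0.042, and mgp at 0.3 ppb to 0.16.

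Called units numbered 0 at 3 ppb, 0 at 30 ppb and 36 for the slope. In that order they numbered 3, 2 and 14 with the median of features, 1193, 354 and 190 with weights, whose estimation did not converge, and 12, 8 and 57 with the gradient. They numbered 25, 36 and 123 with the main axis of variation as a covariate and 4, 19 and 60 with the brighter features. Weights also gave 24 for the mean of doses, 17 for 3 against 0.3 ppb and 2212 for 30 against 3 ppb. The mean of doses had 1 with the brighter features, and 3 against 0.3 ppb had 1 with the main axis. The slope had 11 with dim units left out and 0 with dose in ppb. Without 1 pool, 30 against 0 ppb had 0 to 4 and the slope 0 to 58. With the replicate number as a block, 1 unit was called at 30 ppb and 45 for the slope, no member was called, and the slope of bglap had an unadjusted p of 0.0277. Units with an unadjusted p under 0.05 (limma) numbered 979, 1576 and 1297 with the block at 0.3, 3 and 30 ppb. Without it they numbered 551, 1123 and 928. The pools were not taken as paired by number. For each pool, r with the pools of other doses was averaged by replicate number. Of the 3 numbers, the pool's own had the highest mean r for 7 of 12 pools, and the mean r between same-numbered pools was 0.19. The filter on dim units left no value for sp7 and bglap. Low brightness and weak agreement between features limit all 3 genes.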
